A study of Mus musculus with 10 samples.

Results

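The genes described here are 10 of the 58735 human genes in the count table, chosen by name: 9 genes of checkpoint ligands (CD274, PDCD1LG2, CD276, VTCN1, VSIR, LGALS9, CD47, PVR and NECTIN2) and the inhibitory receptor gene LAG3. They were measured in 10 subcutaneous tumours of LNCaP, an established human prostate cancer cell line, grown from 3000000 injected cells. The host was the NSG mouse, labelled NOD.Cg-Prkdcscid Il2rgtm1Wjl/SzJ, which lacks its own T, B and NK cells but keeps myeloid cells. All 10 mice received sipuleucel-T (sip-T), a vaccine of human blood cells loaded with the antigen prostatic acid phosphatase fused to GM-CSF, in 4 weekly intraperitoneal injections of 5000000 cells in 100 µl of PBS. Control sip-T alone went to the hosts of 5 tumours (the control group), and the hosts of the other 5 (the IL-15 group) had it together with rhIL-15 at 1 µg, the human cytokine on which NK cells and memory T cells depend for survival. Tumours were collected 7 days after the last injection. The series design also speaks of sip-T treated with IL-15, so treatment of the cells and injection of the cytokine cannot be told apart, and it names PBS as the vehicle of control mice. The sources used here give neither the age of the mice nor the number of blood donors.

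Checkpoint ligands are surface or secreted proteins that bind receptors on leukocytes and restrain them, and tumour cells can carry them. PD-L1 (CD274) and PD-L2 (PDCD1LG2) bind PD-1 on T cells, and interferon gamma is a known inducer of PD-L1. CD47 binds SIRP alpha on macrophages and blocks engulfment, while PVR and NECTIN2 between them bind TIGIT, CD96, PVRIG and the activating receptor CD226 on T and NK cells. LAG3 differs from the others in being a receptor of activated T and NK cells, which binds MHC class II on other cells.

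Total counts ranged from 13560224 to 19324056 reads per library. Levels are given as CPM, the counts per 1000000 reads on library sizes scaled by TMM, and 3 counts corresponded to 0.160 to 0.221 CPM, for counting error only. The tumour label held in the RNA: all 12 prostate and epithelial marker genes were abundant enough to test, and KLK3, the gene of prostate-specific antigen, measured 4743 ± 1071 CPM in the control and 5584 ± 1336 CPM in the IL-15 group (SD, n = 5 each). Human leukocyte transcripts were scarce. The 23 T cell marker genes summed to 4.36 to 28.1 CPM in the control group, to 7.76 to 60.3 CPM in the IL-15 group, and none was at 0 in every library. Reads were assigned to the human genome, so myeloid cells of the mouse host are not counted as such, and whether mouse reads were counted for human genes was not tested. In bulk tumour RNA, fewer cells of a type and less RNA per cell cannot be told apart. Errors on CPM and TPM values below are SD over 5 libraries and errors on log2 fold changes are edgeR's standard errors.

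Among the 10 genes, 4 ligands made up nearly all the ligand RNA. Expressed per gene length as TPM, the transcripts per 1000000 transcripts, CD276 averaged 81.5, NECTIN2 80.6, CD47 40.4 and PVR 37.4 TPM over the 10 libraries. These 4 genes held 99.4% to 99.7% of the summed TPM of the 9 ligands in each library. LAG3 came next with 4.61 TPM, and the classical checkpoint ligand CD274 followed with 0.575 TPM. LGALS9 (0.214 TPM), VSIR (0.135 TPM), VTCN1 (0.119 TPM) and PDCD1LG2 (0.0648 TPM) were the least abundant. Against the 16913 genes tested, CD276 had a higher mean TPM than 88.7%, LAG3 than 24.5% and CD274 than 2.20%.

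**Figure D1:**
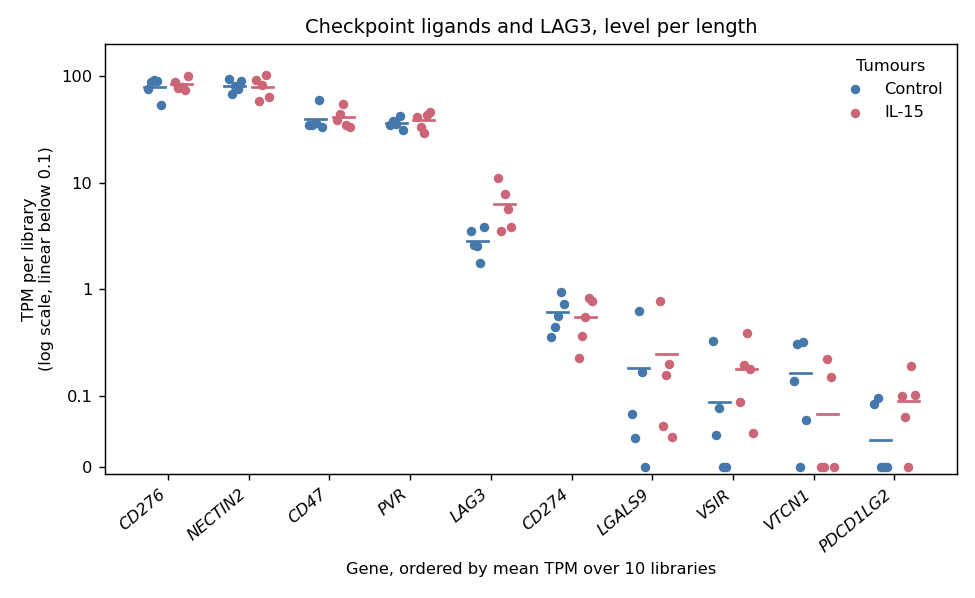
Level per gene length (TPM, log scale that is linear below 0.1) of the 9 ligands and LAG3, with each point a library, blue for control and red for IL-15 tumours, and lines for group means. CD276 and NECTIN2 lie near 80 TPM, while CD274 lies below 1 TPM in every library.

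Neighbours in this order did not all differ beyond their spread between libraries. CD276 exceeded NECTIN2 in 5 of 10 libraries and CD47 exceeded PVR in 5 of 10, so neither order is resolved. NECTIN2 exceeded CD47, PVR exceeded LAG3, and LAG3 exceeded CD274 in 10 of 10 libraries each. CD274 exceeded LGALS9 in 8 of 10 libraries. LGALS9 and VSIR, VSIR and VTCN1, and VTCN1 and PDCD1LG2 were in the order of their means in 4, 7 and 5 of 10 libraries.

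Setting the IL-15 against the control group addresses whether adding the cytokine to sip-T was accompanied by other levels of these genes. LAG3 was higher on average with IL-15, 2.06-fold, without passing the test over all genes. The 5 ligands abundant enough to test had log2 fold changes (IL-15 minus control) between -0.24 and 0.01. Across the 16913 tested genes, edgeR's quasi-likelihood test called 0.0% at an adjusted p of 0.05 (smallest adjusted p = 0.758). Of the 10 genes, 6 passed the filter on low counts and 0 of these were called. At an unadjusted p of 0.05, 1 of the 6 (LAG3) lay on the higher side and 0 on the lower side, where 3.03% and 3.43% of all tested genes did (6.46% in either direction). LAG3 was also the 1 gene of the 6 with a log2 fold change of at least 1, which 1.8% of all tested genes had. DESeq2 and limma voom called 0 of the 6 as well. For all 10 genes the values of the groups overlapped, whereas 0.662% of all tested genes had groups that did not overlap. The median log2 fold change of the 6 tested genes was -0.01, and that of all tested genes was -0.01.

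**Figure D2:**
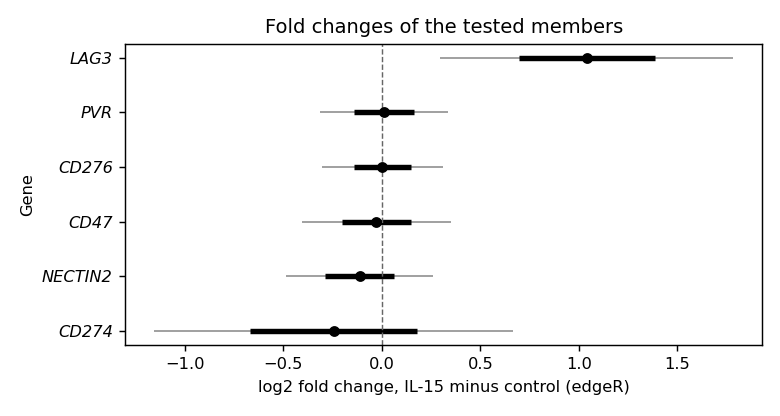
The log2 fold change (IL-15 minus control) of the 6 tested genes from edgeR, with thick bars for 1 standard error and thin lines for the 95% interval, not adjusted for the number of genes. LAG3 stands at 1.04, and the 5 ligands lie between -0.24 and 0.01 with intervals across 0.

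CD276 (B7-H3), a B7 family protein that many carcinomas carry and whose receptor is not settled, lies on chromosome 15 from 73683966 to 73714518 (ENSG00000103855, hg38, as are all coordinates here). The 5 control tumours measured 126, 151, 164, 152 and 107 CPM, and the 5 IL-15 tumours 142, 138, 122, 131 and 168 CPM. The groups overlapped between 122 and 164 CPM, with control tumour 5 below that stretch and IL-15 tumour 5 above it. Their means were 139.9 ± 22.9 and 140.2 ± 17.1 CPM, with a log2 fold change of 0.00 ± 0.14 (95% interval -0.30 to 0.31, edgeR adjusted p = 0.998).

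CD47, the gene of the "don't eat me" signal read by macrophages, lies on chromosome 3 from 108043094 to 108091862 (ENSG00000196776). Its level was 87.1, 87.7, 96.8, 149.6 and 98.2 CPM in control tumours 1 to 5 and 93.2, 117, 126, 89.9 and 83.1 CPM in IL-15 tumours 1 to 5. Control tumour 4 was the highest of all 10, and the other 4 control tumours lay within 87.1 to 98.2 CPM. The log2 fold change was -0.03 ± 0.18 (95% interval -0.41 to 0.35, edgeR adjusted p = 0.984), and without control tumour 4 it was 0.14 ± 0.15. QPCTL, the glutaminyl cyclase that modifies CD47 for binding to SIRP alpha, measured 22.2 ± 5.33 CPM in the control and 23.4 ± 3.29 CPM in the IL-15 group (log2 fold change 0.07 ± 0.18).

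PVR (CD155) and NECTIN2 (CD112) are related adhesion molecules of the nectin family, and their genes lie close together on chromosome 19, from 44643798 to 44663583 (ENSG00000073008) and from 44846175 to 44889228 (ENSG00000130202). PVR measured 37.6, 41.2, 40.6, 45.2 and 39.2 CPM in control tumours and 42.5, 37.9, 28.5, 47.7 and 48.9 CPM in IL-15 tumours. The control tumours formed the narrowest group of any of the 10 genes, with a coefficient of variation of 7.04% against 20.2% in IL-15 tumours, where both the lowest and the highest values of PVR were found. A difference in this spread was not tested. The log2 fold change of PVR was 0.01 ± 0.15 (95% interval -0.32 to 0.34, edgeR adjusted p = 0.994). The end of PVR overlaps the start of CEACAM19 on the same strand (chromosome 19, 44662278 to 44684359), which measured 10.01 ± 3.33 and 14.3 ± 3.48 CPM, and reads in the shared stretch could be counted for either gene or for none. On the opposite strand PVR overlaps AC243964.2 (54 and 58 reads) and MIR4531 (0 and 2 reads), and NECTIN2 overlaps AC011481.2 (17 and 10 reads).

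NECTIN2 measured 107, 78.7, 98.8, 85.3 and 119.8 CPM in control tumours and 102, 71.2, 86.5, 121 and 71.6 CPM in IL-15 tumours. IL-15 tumours 2 and 5 were lower than every control tumour, and IL-15 tumour 4 was higher than every one. The log2 fold change was -0.11 ± 0.17 (95% interval -0.49 to 0.26, edgeR adjusted p = 0.916).

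CD274, the PD-L1 gene, was close to the limit of what these libraries can count. It lies on chromosome 9 from 5450503 to 5470566 (ENSG00000120217), and 7, 8, 11, 20 and 15 reads were counted in control tumours 1 to 5 and 4, 9, 10, 15 and 13 in IL-15 tumours 1 to 5. These counts correspond to 0.448, 0.565, 0.753, 1.16 and 1.07 CPM in control and 0.276, 0.478, 0.624, 1.08 and 0.956 CPM in IL-15 tumours. The lowest value was that of IL-15 tumour 1, which held the most T cell transcripts of all 10 tumours (60.3 CPM). IL-15 tumours 3 and 4 and control tumour 3 came next in T cell transcripts (36.3, 33.1 and 28.1 CPM). Their CD274 values, 0.624, 1.08 and 0.753 CPM, were not the lowest of their groups. The log2 fold change was -0.24 ± 0.42 (edgeR adjusted p = 0.929), and its 95% interval of -1.15 to 0.66 shows how little these counts resolve. PLGRKT, which ends 12625 bases before CD274 on the opposite strand, measured 22.3 ± 2.12 and 25.1 ± 4.30 CPM.

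**Figure D3:**
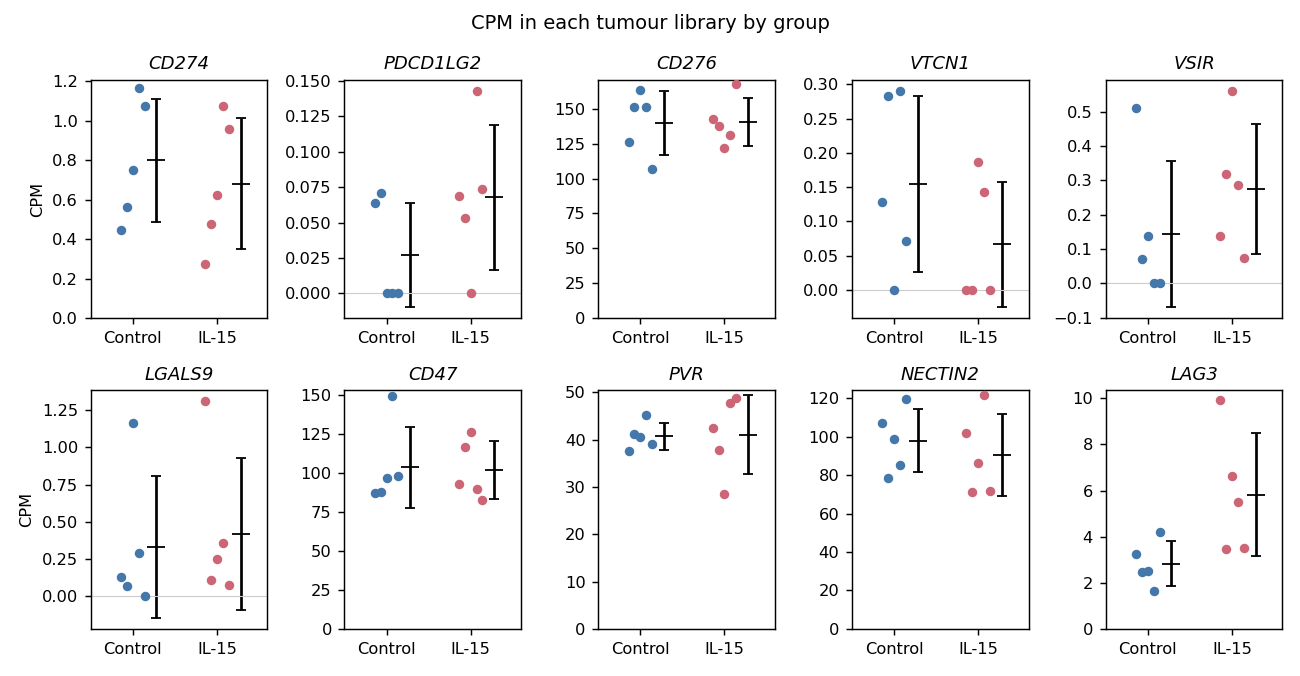
CPM of each of the 10 genes in the 5 control (blue) and 5 IL-15 (red) tumours, each panel with its own linear axis, with black marks for the mean and SD. LAG3 is higher than the control maximum of 4.22 CPM in 3 of 5 IL-15 tumours, and the other panels show overlapping groups.

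The remaining 4 ligands were too scarce for the edgeR test, and their values were read from counts. PDCD1LG2, the PD-L2 gene (ENSG00000197646, chromosome 9, 5510570 to 5571254), had 2 reads over the 5 control libraries and 5 reads over the 5 IL-15 libraries, and was at 0 in 3 control and 1 IL-15 libraries. VTCN1, which encodes B7-H4 (ENSG00000134258, chromosome 1, 117143587 to 117210960), had 12 and 5 reads and was at 0 in 1 control and 3 IL-15 libraries. At 5 reads or fewer per library a difference in either gene was not detectable at this depth.

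VSIR, which encodes VISTA, an inhibitory protein mostly of myeloid cells and T cells (ENSG00000107738, chromosome 10, 71747559 to 71773498), had 8, 1, 2, 0 and 0 reads in control and 2, 6, 9, 4 and 1 reads in IL-15 tumours. VSIR lies wholly within CDH23, on the opposite strand, which had 55 reads in control and 56 reads in IL-15 tumours. The sources used here do not say whether the counting used strand, so reads of the pair could be mixed. LGALS9, the galectin-9 gene (ENSG00000168961, chromosome 17, 27629798 to 27649560), had 2, 1, 17, 5 and 0 reads in control and 19, 2, 4, 5 and 1 reads in IL-15 tumours. The highest libraries were control tumour 3 and IL-15 tumour 1, which also held the most T cell transcripts of their groups (28.1 and 60.3 CPM). IL-15 tumours 3 and 4, with T cell sums of 36.3 and 33.1 CPM, had only 4 and 5 LGALS9 reads. Control tumour 4, with the lowest T cell sum (4.36 CPM), had 5. The part of leukocytes in these reads was not tested. LGALS9C, a near-identical copy, had 11 and 4 reads, so reads of the copies could be split between them, and the overlapping AC015688.4 had 0. Without the filter on low counts, edgeR gave log2 fold changes of 1.11 ± 1.25 for PDCD1LG2, -1.16 ± 1.05 for VTCN1, 0.91 ± 0.82 for VSIR and 0.31 ± 0.87 for LGALS9, with adjusted p-values of 0.793, 0.685, 0.683 and 0.948.

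LAG3 encodes a CD4-related receptor that restrains activated T and NK cells, and it lies on chromosome 12 from 6772512 to 6778455 (ENSG00000089692). In control tumours 1 to 5 it had 51, 35, 37, 28 and 59 reads, or 3.27, 2.47, 2.53, 1.63 and 4.22 CPM. In IL-15 tumours 1 to 5 it had 144, 65, 106, 77 and 48 reads, or 9.93, 3.46, 6.61, 5.52 and 3.53 CPM. IL-15 tumours 1, 3 and 4 lay above every control tumour, whereas IL-15 tumours 2 and 5 lay within the control range. The group means were 2.82 ± 0.972 and 5.81 ± 2.67 CPM, and the log2 fold change of 1.04 ± 0.35 corresponded to a 2.06-fold higher level in IL-15 tumours (95% interval 0.30 to 1.78 on the log2 scale, not adjusted for the number of genes). LAG3 did not pass over all genes (edgeR unadjusted p = 0.00969, adjusted p = 0.758, and DESeq2 adjusted p = 0.341). Without IL-15 tumour 1 the log2 fold change was 0.76 ± 0.33.

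Transcripts of T cells and of cytotoxic lymphocytes differed between the same libraries. The T cell sum was 60.3, 36.3 and 33.1 CPM in IL-15 tumours 1, 3 and 4, and 7.76 and 10.2 CPM in IL-15 tumours 2 and 5. Among control tumours it was 28.1 CPM in tumour 3 and 4.36 to 9.80 CPM in the other 4. The sum over 23 NK cell and cytotoxicity genes ranged from 2.21 to 19.4 CPM in control and from 5.00 to 46.5 CPM in IL-15 tumours, with 1 gene of the list at 0 in every library. Control tumour 3 stood apart from the other lymphocyte-rich tumours: its LAG3 level of 2.53 CPM lay below those of the 3 IL-15 tumours (5.52 to 9.93 CPM), although its T cell sum was near that of IL-15 tumour 4.

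Reads of genes on the T cell list were counted in every library that held LAG3 reads. Control tumour 4 had the fewest, with reads for 13 of the 23 T cell genes (75 reads in all) beside 28 LAG3 reads. The highest in that tumour were TCF7 (20 reads), CD8A (11), ZAP70 (11) and CD7 (10). Of its T cell receptor complex genes, CD247 had 3 reads, CD3G and TRAC 1 each, and CD3D, CD3E, TRBC1 and TRBC2 had 0. Control tumours 1 and 5, with 51 and 59 LAG3 reads, had reads for 18 and 19 of the 23 genes (153 and 122 reads). The chains of the T cell receptor complex were unequal there: CD3E had 0 reads in both and CD3D had 1, whereas CD3G had 6 and 9. IL-15 tumour 1 had reads for all 23 genes, 875 in all, beside 144 LAG3 reads. Of 6 leukocyte genes set beside LAG3 per gene length, CD3E, CD3D, CD2, CD4 and the pan-leukocyte gene PTPRC were below it in 10 of 10 libraries, and CD8A, the coreceptor of cytotoxic T cells, in 8 of 10. CD4 was close to LAG3 in control tumour 4 (1.71 against 1.75 TPM). The other T cell genes were not compared per length in each library. TRAC, a T cell receptor gene, had the highest mean of the 23 genes in both groups. It averaged 2.51 TPM in control and 8.30 TPM in IL-15 tumours, against 2.86 and 6.35 TPM for LAG3. The control mean of TRAC rests on control tumour 3, with 44 of its 58 control reads. Control tumours 1, 2, 4 and 5 had 4, 4, 1 and 5 TRAC reads, beside 51, 35, 28 and 59 LAG3 reads. Which cells held the LAG3 transcripts was not tested.

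**Figure D4:**
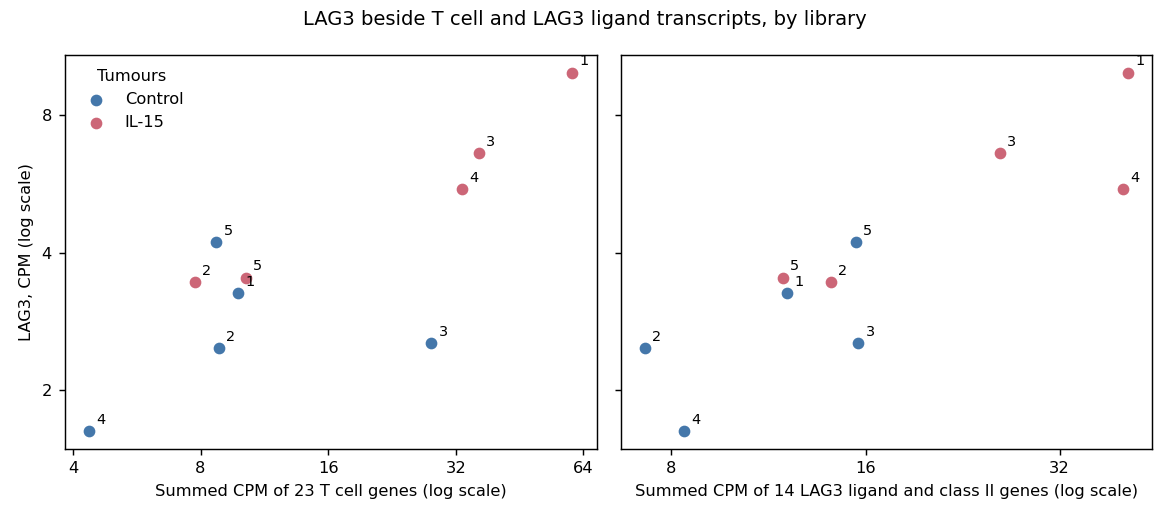
LAG3 (CPM, log scale) against the summed CPM of 23 T cell genes (left) and of 14 LAG3 ligand and MHC class II genes (right), with each point a library numbered by replicate, blue for control and red for IL-15. IL-15 tumours 1, 3 and 4 lie at the upper right of both panels, and control tumour 3 has a T cell sum of 28.1 CPM with 2.53 CPM of LAG3.

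The libraries fell into 2 stretches by T cell sum, 6 from 4.36 to 10.2 CPM and 4 from 28.1 to 60.3 CPM, and the NK cell list split them the same way. A correlation over all 10 was therefore not computed for these lists. Within the 6 lower libraries, LAG3 and the T cell sum had r = 0.81 (exact permutation p = 0.0819, adjusted 0.164 over 6 relations) and rho = 0.37 (exact permutation p = 0.497, adjusted 0.497). LAG3 and the NK cell and cytotoxicity sum had r = 0.85 (exact permutation p = 0.025, adjusted 0.075) and rho = 0.71 (exact permutation p = 0.136, adjusted 0.331) over the same 6 libraries. Leaving out the 2 farthest libraries would leave 4, so no such value is given. With group means removed, the NK cell relation had r = 0.83. No p-value is given for relations with group means removed, because permutations that cross the groups are then not exact.

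Over all 10 libraries, LAG3 and the list of its ligands and of MHC class II genes had r = 0.88 (permutation p = 0.00084, adjusted 0.00504) and rho = 0.82 (permutation p = 0.00577, adjusted 0.0346). This list was also uneven, with 40.9, 25.8 and 40.1 CPM in IL-15 tumours 1, 3 and 4 and 7.28 to 15.6 CPM in the others. The same IL-15 tumours had the highest LAG3 levels, and the permutations crossed the groups. These p-values therefore cannot tell a graded relation from a gap between those tumours and the others. A value within the lower libraries is not given. The correlation was 0.83 without IL-15 tumours 1 and 4, the 2 libraries farthest from the median of the list. With group means removed it was 0.79. LAG3 and the interferon gamma response sum had r = 0.37 (permutation p = 0.285, adjusted 0.342) and rho = 0.48 (permutation p = 0.166, adjusted 0.331), with r = 0.41 without the 2 farthest libraries. That r was 0.05 with group means removed and 0.62 without IL-15 tumour 1 (permutation p = 0.0721, adjusted 0.123). CD274 and that sum had r = 0.40 (permutation p = 0.256, adjusted 0.342) and rho = 0.39 (permutation p = 0.265, adjusted 0.397). The r of CD274 was 0.31 without those 2 libraries and 0.60 with group means removed. CD274 and the T cell sum had r = -0.44 over the 6 lower libraries (exact permutation p = 0.440, adjusted 0.440) and rho = -0.43 (exact permutation p = 0.419, adjusted 0.497).

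The 5 genes closest to LAG3 in their pattern belong to none of the gene lists used here. Among 12549 other protein-coding genes with at least 1 CPM, the highest Pearson correlations of log2 CPM over the 10 libraries were those of GDPD3 (r = 0.95), SLC25A34 (0.93), ZMYND10 (0.92), ZRSR2 (0.91) and RABL2A (0.91). With group means removed these were 0.90, 0.87, 0.84, 0.89 and 0.95. GDPD3, a phosphodiesterase gene, averaged 2.40 and 4.17 CPM in control and IL-15 tumours, and RABL2A, a small GTPase gene, 14.8 and 17.5 CPM. Further down the same order came the class II transactivator gene CIITA (r = 0.85, rank 38), the costimulatory receptor gene CD27 (0.85, rank 41) and the invariant chain gene CD74 (0.85, rank 44). The 5 ranked cytotoxicity genes were NKG7 (0.82, rank 72), GNLY (0.81, rank 97), PRF1 (0.73, rank 300), GZMA (0.73, rank 324) and CTSW (0.71, rank 370). The 5 ranked T cell genes were spread widely, from CD8A (0.73, rank 303) and ZAP70 (0.71, rank 396) through CD7 (0.59, rank 915) and LCK (0.56, rank 1088) to TCF7 (0.03, rank 5363). Only 5 of the 23 genes of each of these 2 lists passed the filter on low counts. The CD3 genes, CD2, CD8B and the T cell receptor genes therefore have no rank. These correlations describe 10 libraries that share 2 groups and fall into 2 stretches by T cell sum, and the leading genes were picked as the highest of many.

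The neighbours of LAG3 on chromosome 12 had fold changes closer to 0. PTMS, the parathymosin gene, ends 1560 bases before LAG3 on the same strand and was far more abundant, with 278 ± 74.1 CPM in the control and 298 ± 33.0 CPM in the IL-15 group (log2 fold change 0.10 ± 0.18). Its correlation with LAG3 over the 10 libraries was 0.60 (rank 882). CD4, the helper T cell coreceptor gene, starts 8403 bases after LAG3 and measured 1.46 ± 0.866 and 2.05 ± 0.782 CPM (log2 fold change 0.49 ± 0.45), and MLF2 had a log2 fold change of -0.15 ± 0.13.

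The ligands of LAG3 had higher means in IL-15 tumours, without passing the test. Of 14 genes in this list, which also holds the class II chaperone and transactivator genes, 5 passed the filter on low counts and all 5 had fold changes above 0, as did 49.0% of all tested genes. The median log2 fold change of the 5 was 0.85, with 0 called. At an unadjusted p of 0.05, 2 of them were higher, as were 3.03% of all tested genes. With each library left out, 6 to 8 genes passed the filter and 0 to 4 reached that p, 0 without IL-15 tumour 4. Over all tested genes, 616 to 1575 reached it in either direction. A gene can pass the filter through 1 group, so the signs and these counts depend in part on the filter. HLA-DMB, a class II chaperone gene, had 19, 1, 0, 3 and 2 reads in control and 16, 5, 17, 107 and 12 reads in IL-15 tumours. HLA-DMA, a peptide loading chaperone gene, measured 3.56 ± 0.721 and 6.37 ± 2.62 CPM (log2 fold change 0.84 ± 0.30, edgeR adjusted p = 0.758). CD74, the invariant chain gene, measured 1.86, 0.777, 6.91, 0.291 and 4.07 CPM in control and 15.9, 1.86, 7.24, 9.25 and 2.13 CPM in IL-15 tumours. Its high libraries were IL-15 tumours 1, 3 and 4 and control tumour 3, the 4 libraries with the highest T cell sums. HLA-DRA, the alpha chain gene of the class II molecule HLA-DR, was too scarce to test, with 4, 0, 22, 1 and 10 reads in control and 45, 6, 40, 27 and 4 reads in IL-15 tumours. LGALS3, the galectin-3 gene, measured 0.565 ± 0.188 and 1.02 ± 0.620 CPM, and FGL1, a secreted ligand of LAG3, had 4 and 13 reads. Reads of class II genes can be shared between paralogs, so single values are uncertain.

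Human receptors of the ligands were near the counting limit. Of 23 checkpoint receptor genes, 4 passed the filter on low counts, and 0 of these were called. Fold changes were above 0 for 3 and below 0 for 1, where 49.0% of all tested genes were above 0. TNFRSF18, the gene of the costimulatory receptor GITR, had a log2 fold change of -1.01 ± 0.94, and control tumour 3 alone held 239 of its 334 control reads, against 174 reads with IL-15. CD160, a receptor gene of NK cells and T cells, had 70 and 77 reads. CD27, a costimulatory receptor gene, was the 1 gene of the 4 with an unadjusted p under 0.05, where 3.03% of all tested genes were higher. CD27 measured 0.731 ± 0.371 and 1.502 ± 0.519 CPM (log2 fold change 1.03 ± 0.39, edgeR adjusted p = 0.758). PDCD1, the PD-1 gene, had 2, 4, 5, 4 and 0 reads in control and 23, 5, 16, 18 and 2 reads in IL-15 tumours. Its 3 highest libraries were IL-15 tumours 1, 3 and 4, and control tumour 3, the control tumour richest in T cell transcripts, had 5 reads. HAVCR2, the gene of the galectin-9 receptor TIM-3, had 21 and 47 reads over 5 libraries each.

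TIGIT, an inhibitory receptor of PVR and NECTIN2, had 1, 1, 10, 0 and 0 reads in control and 24, 1, 9, 3 and 1 reads in IL-15 tumours, so that IL-15 tumour 1 and control tumour 3 held most of them. The related receptor CD96 had 19 and 62 reads, the activating receptor CD226 50 and 52, and PVRIG, a receptor of NECTIN2, 68 and 70. For CD47, the macrophage receptor gene SIRPA had 10 and 1 reads and the lymphocyte receptor gene SIRPG 4 and 24 reads. IGSF11, a reported partner of VISTA, had 11 and 4 reads. Over 5 libraries each, the remaining inhibitory receptor genes were scarce too, with 2 and 6 reads for CTLA4, 6 and 4 for BTLA, 1 and 40 for KLRC1, 11 and 20 for KLRG1, 5 and 17 for CD244, 3 and 10 for CD200R1 and 1 and 0 for LAIR1. The costimulatory genes CD28, ICOS, TNFRSF4 and TNFRSF9 had 4 and 5, 0 and 4, 25 and 18, and 50 and 53 reads. Summed markers of human monocytes, macrophages and dendritic cells were 5.56 ± 1.77 CPM in the control and 5.45 ± 0.920 CPM in the IL-15 group, with 3 of 22 genes at 0 in every library.

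**Figure D5:**
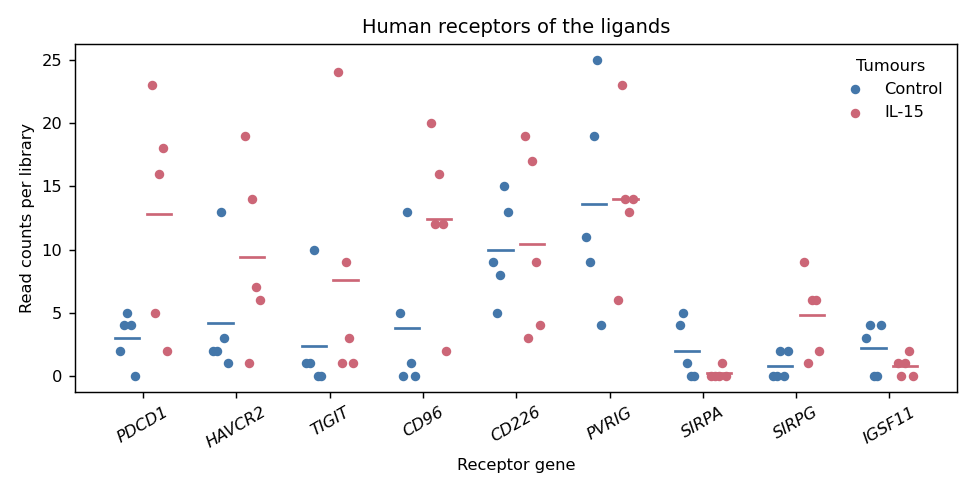
Read counts per library of 9 human receptor genes of the ligands, in control (blue) and IL-15 (red) tumours, with lines for group means. PDCD1 reaches 16 to 23 reads in 3 IL-15 tumours and at most 5 in control tumours, while CD226 and PVRIG overlap throughout.

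Regulators of PD-L1 had fold changes on both sides of 0, and most were abundant enough to test. Of 34 genes that induce, stabilise or degrade PD-L1 or modify CD47, 32 were tested, 14 with fold changes above 0 and 18 below. The other 2 were B3GNT3, with 0 reads in every library, and SOCS3, with 29 and 27 reads. The median of the 32 on the log2 scale was -0.06, 0 genes were called, and 1 gene (RELA, lower) had an unadjusted p under 0.05. Of all tested genes, 49.0% had fold changes above 0 and 3.43% were lower at that p. RELA, an NF-kB subunit gene, measured 113 ± 19.6 and 87.4 ± 9.50 CPM (log2 fold change -0.37 ± 0.14, edgeR adjusted p = 0.758). CMTM6, which keeps PD-L1 at the cell surface, measured 99.4 ± 21.7 and 109 ± 28.5 CPM. The interferon gamma receptor gene IFNGR1 measured 33.3 ± 6.18 and 36.9 ± 7.65 CPM, and the kinase genes JAK1 and JAK2 13.6 ± 2.50 against 15.9 ± 3.199 CPM and 11.02 ± 2.15 against 10.1 ± 1.498 CPM. IRF1, the transcription factor through which interferon gamma acts on CD274, measured 4.15 ± 2.44 and 6.41 ± 2.22 CPM (log2 fold change 0.63 ± 0.36, edgeR adjusted p = 0.776).

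Of 26 interferon gamma response genes, 19 were tested. Fold changes were above 0 for 12 and below 0 for 7, where 49.0% of all tested genes were above 0. The median of the 19 was 0.31 on the log2 scale, with 0 called. At an unadjusted p of 0.05, where 3.03% of all tested genes were higher, 5 of the 19 were higher. PSMB9, an immunoproteasome subunit gene, had the smallest p (0.754 ± 0.519 and 3.04 ± 2.56 CPM, log2 fold change 1.997 ± 0.71, edgeR adjusted p = 0.758). IL-15 tumour 5 held its highest value, 7.28 CPM, against 0.425 to 2.94 CPM in the other 4, and without that tumour the log2 fold change was 1.38 ± 0.65. APOL6, an interferon-induced gene, went from 1.32 ± 0.60 to 0.49 ± 0.45 without the same tumour, whereas B2M, the light chain gene of MHC class I, was at 0.38 ± 0.17 with it and 0.39 ± 0.18 without. The median of the list was 0.19 without IL-15 tumour 5, with 2 genes higher at an unadjusted p of 0.05. That number was also 2 without IL-15 tumour 3 or 4, and 10 of 21 tested genes without IL-15 tumour 2. The count over all tested genes, in either direction, moved too. It was 1412 of 17326 without IL-15 tumour 5, 616 of 17202 without tumour 3, 962 of 17274 without tumour 4 and 1575 of 17287 without tumour 2. The log2 fold change of CD274, itself a target of interferon gamma, was -0.24.

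Other costimulatory and inhibitory ligands showed the same lack of called changes. Of all tested genes, 49.0% had fold changes above 0, and at an unadjusted p of 0.05 3.03% were higher and 3.43% lower. Of 28 ligand genes, 18 were tested, 6 with fold changes above 0 and 12 below (median -0.07). None was called, and 0 were higher and 2 lower at that p. The 2 were butyrophilin genes: BTN3A1, which presents phosphoantigen signals to gamma delta T cells, measured 13.1 ± 2.71 and 8.95 ± 1.31 CPM (log2 fold change -0.54 ± 0.19, edgeR adjusted p = 0.758), and BTN2A2 24.3 ± 3.11 and 18.9 ± 2.78 CPM (-0.36 ± 0.15, edgeR adjusted p = 0.758). The nectin genes NECTIN1 (61.2 ± 10.4 and 53.2 ± 11.6 CPM) and NECTIN4 (31.5 ± 9.84 and 35.3 ± 7.56 CPM) were abundant as well. The B7 genes CD80 and CD86, ligands of CD28 and CTLA4, had 22 and 9 reads in control and 17 and 7 reads in IL-15 tumours.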

How the data were processed

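Tumour RNA was isolated with TRIzol for Illumina sequencing, per the labels' protocols. Tools named in the submitters' processing notes, with no role or setting, are HISAT2 2.0.5, fastp, GATK 4.1.1.0, featureCounts 1.5.0-p3 and DESeq2 1.20.0, and the build is hg38. The labels give the organism as mouse, but the deposited tables hold human genes. Values analysed were whole-number read counts per gene, not normalized, as deposited. The authors' FPKM values, also deposited, were used only in an alternative.

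Groups came from the sample titles (5 libraries each). That each library is a separate mouse is implied, not stated, so p-values measure the spread between libraries. Every pair of the 10 libraries differed beyond sampling noise (45 pairs, chi-square over its degrees of freedom 17.9 to 78.5). Genes were kept with filterByExpr (minimum count 10), given TMM scaling factors, and compared by the quasi-likelihood test of edgeR 4.0.16 with robust fitting (R 4.3.3) and Benjamini-Hochberg adjustment over 16913 genes. TPM was computed from counts and deposited gene lengths. Relations used log2 CPM (pseudocount 0.1), with 100000 permutations for 10 libraries and all permutations for 6. Restricting the T cell and NK cell relations to 6 libraries, and leaving out each library for the list counts, were decided after the data were seen. The edgeR step was tested on simulated data. DESeq2 1.42.0 and limma 3.58.1 served as alternatives, beside other scalings, filters, the replicate block and each library left out.

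The genes and lists were chosen with earlier results of these data known. Named genes were the 10 genes, their receptors, neighbours within 20 kb of LAG3, CD274 and PDCD1LG2, overlapping genes, the genes most like LAG3 and CD274, and list members taken by smallest p. Further list genes were named for their role, after their values were seen. The symbol WARS1 was matched as WARS. Human sequences were not used here.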

Additional observations from a re-analysis of the deposited data

Results flagged for a closer look

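Of 20 groups of 5 libraries (10 genes in 2 groups), 4 had a library that stood apart from the others, measured as its gap to the nearest library over the range of the group (limit 0.710). For normally distributed values, chance gives such a gap in about 1 in 20 groups. Genes with few reads, such as LGALS9 and VSIR, need not follow that rate. CD47 measured 149.6 CPM in control tumour 4, a gap of 0.823 of the range. LGALS9 measured 1.16 CPM in control tumour 3 (0.75 of the range) and 1.31 CPM in IL-15 tumour 1 (0.770), both libraries with the highest T cell sum of their group. IL-15 tumours 3 and 4, which had higher T cell sums than control tumour 3, measured 0.250 and 0.358 CPM of LGALS9. VSIR measured 0.512 CPM in control tumour 1 (0.733), from 8 reads.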

How the results depend on the processing

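LAG3 (log2 fold change 0.53 to 1.23), CD274 and NECTIN2 kept their direction in all alternatives that gave a value, and adjusted p-values for LAG3 ran from 0.341 to 0.999. CD274 was not tested at a mean of at least 1 CPM. CD276, CD47 and PVR, with fold changes near 0, changed sign. CD276 was -0.0042 and -0.0044 on log2(FPKM + 0.1) and log2(FPKM + 1), and -0.0723 to 0.0642 with each library left out. CD47 was 0.0177 with upper quartile scaling, 0.0587 with library size alone, and -0.11 to 0.14 with each library left out. PVR was -0.0185 with limma voom, -0.0275 and -0.0233 on the FPKM scales, and -0.0625 to 0.13 with each library left out. With the replicate block, PVR was -0.0111 and LAG3 1.00 (edgeR adjusted p = 0.803), and no call changed. Deviations of same-numbered libraries correlated at -0.22 to 0.26, highest for the own number in 1 of 5 control libraries. These values cannot tell whether a number marks a shared litter, donor or day, which the labels do not say. The genes called numbered 0 in edgeR (1092 at an unadjusted p under 0.05), 7 with DESeq2 (1246) and 1 without the low-count filter (MALINC1, named after its value was seen, with 2756), and 0 with each library left out. The relation of LAG3 with the NK cell list did not pass (exact permutation p = 0.025, adjusted 0.075), and its r was 0.83 with group means removed. Depth limits CD274 and the 4 scarcer ligands.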

Other observations

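Genes of T cell activation and exhaustion, which often accompany LAG3 on T cells, were mostly too scarce to test. Of 16 genes, 5 were tested, 3 with fold changes above 0 and 2 below (median 0.28), and 0 were called. Among all tested genes, 49.0% had fold changes above 0. NR4A1, a nuclear receptor gene that tumour cells also express, measured 51.4 ± 21.1 and 62.2 ± 12.8 CPM, and TOX2 5.38 ± 5.18 and 6.69 ± 1.82 CPM. IL2RB, a receptor subunit gene for IL-15, had 6, 1, 35, 0 and 0 reads in control tumours and 70, 13, 46, 45 and 6 reads in IL-15 tumours. Its high libraries were control tumour 3 and IL-15 tumours 1, 3 and 4, those with the highest T cell sums. IL2RA had 2, 1, 0, 1 and 4 reads in control tumours and 12, 0, 6, 11 and 4 in IL-15 tumours. IFNG, the interferon gamma gene, had 1, 0, 2, 0 and 2 reads, and 8, 0, 9, 7 and 0. TOX, a transcription factor gene of exhausted T cells, had 5 and 9 reads.

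The authors' deposited table of group means gave FPKM values of 0.762 for LAG3, 0.216 for CD274 and 24.3 for CD276 in the control group, whereas the means of the 5 control libraries were 0.839, 0.178 and 23.01. The control means differed for all 10 genes, while the IL-15 means equalled those of the 5 libraries for 10 of 10 (relative tolerance 1e-06). The sources used here do not say which libraries entered the authors' control means.

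Genes most like the ligands over the 10 libraries were SLC38A2 for CD47 (r = 0.98, and 0.92 without the 2 libraries farthest from the median of CD47), SLC7A1 for CD276 (0.96 and 0.88), ZFP36 for NECTIN2 (0.95 and 0.93), TRUB2 for PVR (0.92 and 0.67) and ILVBL for CD274 (0.90 and 0.91). CXorf40A, ATP6V1F, CIB1 and BLCAP followed for CD274 (0.83 to 0.86). SLC38A2 and SLC7A1 both encode amino acid transporters. These are the highest of many correlations and are given as a description.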
